A study of Mus musculus with 3 samples.

Results

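Capture Hi-C contacts were described for the genes of 6 transcription factors of the naive pluripotent state, Esrrb, Tfcp2l1, Tbx3, Prdm14, Sall4 and Zfp42. For each gene a fixed window of the mouse genome (build mm9) was taken, and every di-tag with at least 1 end in it was counted in the lists with duplicates removed. A di-tag is a pair of reads whose fragments were ligated to each other, so that its 2 ends mark a contact between 2 places. The 6 windows covered 37 regions of 10 kb, of which 34, 35 and 34 held an end in Samples 3, 4 and 5, among 240160, 240452 and 240654 covered regions of the genome. They held 4338 of 9376907 di-tags in Sample 3, 3459 of 8596799 in Sample 4 and 3486 of 8821161 in Sample 5.

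The series compared 3 mouse Capture Hi-C libraries, each with its di-tags listed with duplicates retained and with duplicates removed. All are labelled strain C57BL/6 with the cell type embryonic stem cells, untreated as far as the labels say, and form 1 group of 3 (Samples 3, 4 and 5). The chromatin was cross-linked with formaldehyde and cut with HindIII, ligated, and enriched for chosen fragments by hybridisation. The labels do not say whether the libraries came from separate cultures, so p-values over libraries measure the spread between these samples, which may be technical.

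Sample 3 stood apart. Although its cell type is labelled embryonic stem cells, its source is given as foetal liver. The paper describes Samples 3, 4 and 5 as made from mouse embryonic stem cells. The lists hold positions and no transcript levels by which the cell type could be checked against expressed markers. Of all its di-tags 52.0% were trans, joining 2 chromosomes, against 67.4% in Sample 4 and 71.6% in Sample 5. Cis di-tags with ends over 1 Mb apart made up 29.7% of all di-tags in Sample 3, 10.3% in Sample 4 and 9.13% in Sample 5. Results are therefore given per library, and means also without Sample 3.

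The naive state is that of embryonic stem cells which resemble the epiblast of the blastocyst before implantation, and it is held by a network of transcription factors that bind one another's genes. Esrrb, an orphan nuclear receptor, and Tfcp2l1, a factor of the CP2 family, are central to that network, and the T-box factor Tbx3 and the PR domain protein Prdm14 act beside them. Sall4 is a zinc finger factor of stem cells and early embryos, and Zfp42, also called Rex1, is a zinc finger gene used as a marker of naive cells.

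The windows, in mm9, ran from 87690000 to 87869999 on chromosome 12 for Esrrb, from 120510000 to 120589999 on chromosome 1 for Tfcp2l1, and from 120110000 to 120139999 on chromosome 5 for Tbx3. Those of Prdm14, Sall4 and Zfp42 ran from 13100000 to 13119999 on chromosome 1, from 168570000 to 168599999 on chromosome 2 and from 44370000 to 44399999 on chromosome 8. They spanned 180 kb, 80 kb, 30 kb, 20 kb, 30 kb and 30 kb in the order given. No mm9 annotation was used here, so exons, introns and UTRs are not assigned to positions inside the windows.

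HindIII cuts at AAGCTT, and a fragment between such cuts is the unit whose contacts Capture Hi-C can record. In RefSeq (GRCm38.p6, another build than that of the di-tags), 4 promoters were found for 3 of the 6 genes, 2 of Esrrb and 1 each of Tfcp2l1 and Zfp42. The 250 bases before the start were searched for AAGCTT, which reads the same on both strands. The site was in 1 of these 4 promoters, against 2043 of 32851 promoters of the table, or 6.22%. Both Esrrb promoters are shown because Esrrb is the member with the cutting site in a promoter window. The site is in capitals, 214 bases before the start of the second promoter, and both sequences are on the plus strand of chromosome 12.
Esrrb first promoter, chr12:86360867-86361116: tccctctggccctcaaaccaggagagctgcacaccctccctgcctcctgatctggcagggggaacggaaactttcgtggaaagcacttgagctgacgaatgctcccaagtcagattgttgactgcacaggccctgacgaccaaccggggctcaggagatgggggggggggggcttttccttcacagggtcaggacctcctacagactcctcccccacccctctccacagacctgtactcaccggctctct
Esrrb second promoter, chr12:86421394-86421643: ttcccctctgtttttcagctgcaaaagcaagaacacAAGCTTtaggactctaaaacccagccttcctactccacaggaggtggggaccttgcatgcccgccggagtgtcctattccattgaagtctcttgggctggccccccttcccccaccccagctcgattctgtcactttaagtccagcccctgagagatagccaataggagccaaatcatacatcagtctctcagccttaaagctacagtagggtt

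Ends of di-tags were concentrated at a few points of each window. In the Esrrb window, the region from 87700000 to 87709999 held 885, 750 and 694 ends in Samples 3, 4 and 5, which was 20.1, 15.6 and 13.9 times the median covered region. It was the most covered region among the 6 genes in every library. The most covered region of Tbx3, from 120110000 to 120119999, held 369, 274 and 339 ends. That of Prdm14, from 13110000 to 13119999, held 160, 100 and 106 ends, and that of Zfp42, from 44390000 to 44399999, held 202, 115 and 126. In the Sall4 window the region from 168590000 to 168599999 led with 126, 102 and 81 ends. Tfcp2l1 had 2 regions of similar coverage, so that the leading one held 478, 283 and 258 ends but was not the same in all libraries.

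**Figure D1:**
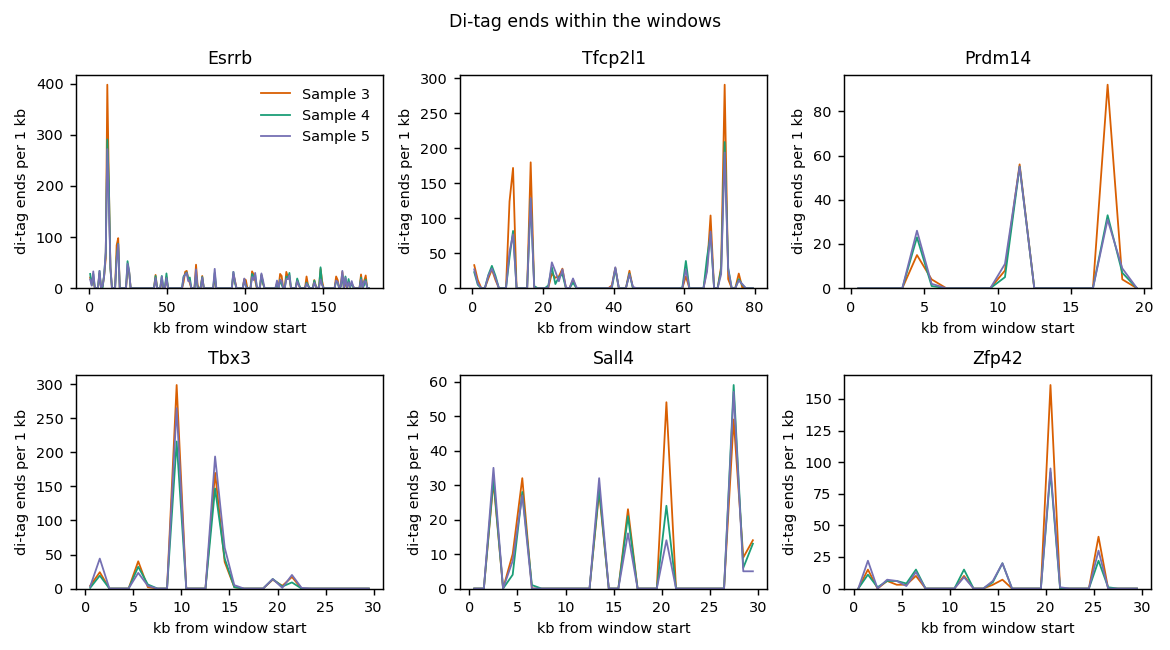
Number of di-tag ends per 1 kb (vertical axis) against the distance from the window start in kb (horizontal axis) for each gene, with 1 line per library. The Esrrb lines are highest at the same bin, with 398, 291 and 272 ends, next to a bin of 207, 204 and 166, whereas the highest bin of Prdm14 and of Sall4 in Sample 3 is not that of Samples 4 and 5.

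At 1 kb the same bin led in every library for 4 of the 6 genes but not for Prdm14 and Sall4, and some bins held reads of nearly 1 strand alone. In the Tbx3 window the bin from 120119000 held 299, 216 and 265 ends, of which 13.0%, 8.80% and 8.68% were on the plus strand. The bin from 120123000 held 170, 147 and 194 ends, of which 97.1%, 97.3% and 97.9% were on the plus strand. Prdm14 showed the same arrangement, with 1.79%, 3.64% and 0% plus-strand ends in the bin from 13111000 and 97.8%, 84.8% and 90.3% in the bin from 13117000. The first of these Prdm14 bins held 56, 55 and 55 ends, and the second, which led in Sample 3, held 92, 33 and 31. For Zfp42 the bin from 44390000 held 161, 92 and 95 ends, or 62.2%, 46.5% and 45.0% of the window's ends. The Sall4 bin from 168597000, which led in Samples 4 and 5, had 49, 59 and 57 ends with 46.9%, 54.2% and 49.1% on the plus strand. In Sample 3 the Sall4 bin from 168590000 led with 54 ends, of which 11.1% were on the plus strand, against 24 and 14 ends in the other libraries.

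A region was called most covered, and used as a viewpoint, where it belonged, in each of the other libraries, to the 10% of regions with the most ends. By that measure 5 of the 37 member regions were viewpoints in each library, 1 of Esrrb, 2 of Tfcp2l1 and 2 of Tbx3. Prdm14, Sall4 and Zfp42 had none, and their values rest on few di-tags, with 178, 123 and 134 for Prdm14, 247, 210 and 191 for Sall4 and 257, 190 and 204 for Zfp42. Esrrb had 1876, 1626 and 1537 di-tags, Tfcp2l1 1192, 858 and 852, and Tbx3 589, 453 and 568.

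Relative to all ends of a library, coverage of Tfcp2l1 was 0.822 times that of Sample 3 in Sample 4 and 0.786 times in Sample 5. For Prdm14 the ratios were 0.756 and 0.796, for Esrrb 0.997 and 0.916, and for Sall4 0.947 and 0.846. Tbx3 had ratios of 0.876 and 1.098, the highest of the 6 windows in Sample 5. Zfp42 lies on chromosome 8, which held 1.29 times the share of ends of Sample 3 in both other libraries. Its window had ratios of 0.834 and 0.866, or 0.644 and 0.672 relative to its chromosome. No test was made of these ratios, each of which compares 2 libraries.

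Over the 6 windows together, 48.8%, 65.8% and 65.9% of the di-tags were trans. Esrrb had a trans share of 53.1%, 67.8% and 69.9%, close to those of the whole libraries, and Tfcp2l1 had 48.5%, 68.4% and 69.1%. Tbx3 was the lowest in each library with 37.7% (exact 95% interval 33.8% to 41.7%) in Sample 3, 57.4% (52.7% to 62.0%) in Sample 4 and 48.1% (43.9% to 52.3%) in Sample 5. Each of these 3 intervals lies below the share of its library. Exact binomial (Clopper-Pearson) intervals cover counting error only.

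For Sall4 the trans share was 41.3% (35.1% to 47.7%), 61.9% (55.0% to 68.5%) and 62.3% (55.0% to 69.2%), below the library in 3 of 3, with the interval of Sample 4 reaching past the library's share. Prdm14 had 51.1%, 60.2% and 70.9%, and Zfp42 had 50.6%, 64.7% and 72.5%. All 3 intervals of both genes held the library's share, so that no difference was detectable at this depth.

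The difference between a gene's trans share and that of all di-tags was set against the spread between libraries. It was −15.9 ± 6.88 percentage points for Tbx3 (SD, n = 3), lower in 3 of 3 libraries, and −16.8 without Sample 3. For Sall4 it was −8.49 ± 2.65 points, also lower in 3 of 3, and −7.40 without Sample 3. Prdm14, with −2.93 ± 3.77, was lower in 3 of 3 as well, by less than its SD. Tfcp2l1, Zfp42 and Esrrb differed by −1.64 ± 2.32, −1.03 ± 1.87 and −0.0519 ± 1.46 points. The two-sided exact sign-flip permutation test over 3 libraries cannot give a p below 0.25, which was its value for Tbx3, Sall4 and Prdm14 (0.5 adjusted over the 6 genes by Benjamini-Hochberg). It was 0.5 for Tfcp2l1 and Zfp42 and 1 for Esrrb in the same exact permutation test. Ordered by this difference, Tbx3 came below Sall4 in every library, but their intervals overlapped in Samples 3 and 4. Sall4 and Prdm14 changed places in Sample 4, and the order of Prdm14, Tfcp2l1, Zfp42 and Esrrb was within their spread.

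**Figure D2:**
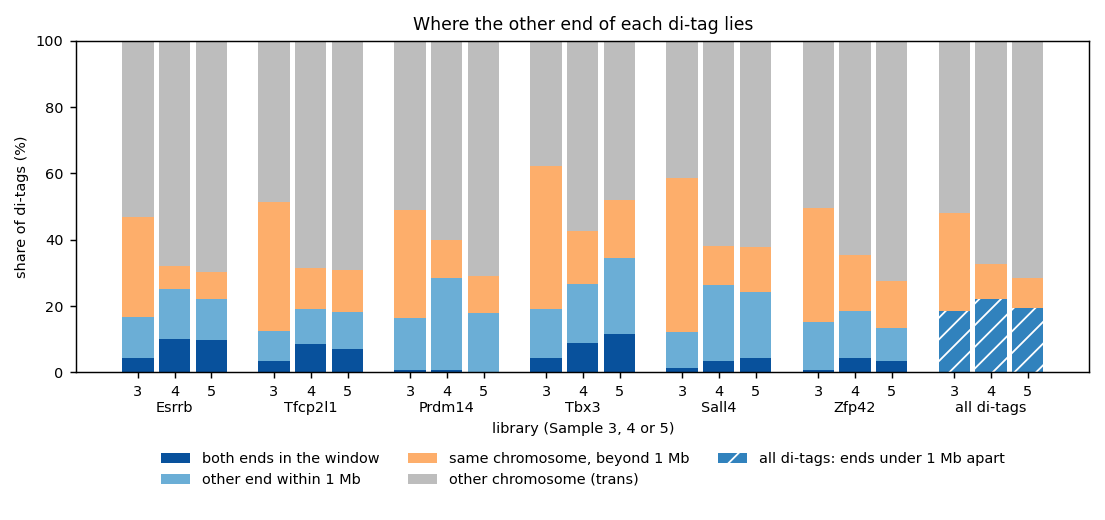
Stacked bars of the share of di-tags (%, vertical axis) by where the other end lies, for each gene in Samples 3, 4 and 5 and for all di-tags of each library (horizontal axis). Tbx3 has the smallest trans part in each library, 37.7%, 57.4% and 48.1%, and Sample 3 has the largest part beyond 1 Mb for every gene.

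The same comparison was made among the viewpoints, which share a lower limit of coverage but are not matched in it. Over all 21792, 19557 and 19875 viewpoints of the 3 libraries, the median trans share was 48.2%, 64.7% and 69.2%. Each median lies below the share over all di-tags (52.0%, 67.4% and 71.6%), so viewpoints in general were also below their library. The Tbx3 region from 120110000 had 36.1%, 56.6% and 46.0%, at percentiles 3.10, 8.05 and 0.136 of all viewpoints. The neighbouring Tbx3 region from 120120000 was at percentiles 11.0, 4.10 and 0.206. By contrast, the Esrrb viewpoint was at percentiles 78.9, 58.8 and 25.6, and the Tfcp2l1 viewpoints lay between percentiles 30.9 and 75.2 in the 3 libraries.

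Of the cis di-tags of a window, the share whose other end was inside the window or within 1 Mb of its edge separated Sample 3 from the other libraries for all 6 genes. Esrrb had 35.6%, 78.6% and 73.9% in Samples 3, 4 and 5, the highest of the genes in each library when di-tags inside the window are counted. Zfp42 had 30.7%, 52.2% and 48.2%, the lowest in Samples 4 and 5, and the lowest in Sample 3 was Sall4 with 20.7%, against 68.8% and 63.9% in the others. Tbx3 had 30.5%, 62.2% and 66.4%, Tfcp2l1 24.1%, 60.9% and 58.9%, and Prdm14 33.3%, 71.4% and 61.5%. Over the 6 windows the share was 55.4% ± 21.8 (SD, n = 3), and 67.9% as the mean without Sample 3. Without di-tags inside a window the mean share was 53.2% for Esrrb and 55.0% for Prdm14, so Esrrb no longer led. The Esrrb window was the widest at 180 kb, and the mean share of all its di-tags lying inside was 7.99%. That mean was 6.32% for Tfcp2l1 (80 kb), 2.91% for Sall4 and 2.81% for Zfp42 (30 kb each) and 0.458% for Prdm14 (20 kb). It thus rose with window width except for Tbx3, which had 8.23% in a window of 30 kb.

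Per viewpoint, where all regions have the same width, the Esrrb region was at percentiles 49.2, 94.0 and 87.4 of this share, with values of 38.8%, 82.8% and 79.3%. The median viewpoint had 39.0%, 70.9% and 70.0%. The Tfcp2l1 region from 120580000 was low in each library, at percentiles 6.84, 15.9 and 15.3. The other Tfcp2l1 viewpoint was at 8.11, 54.2 and 16.8.

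Contacts beyond 1 Mb of the edge on the same chromosome made up 43.3% of Tbx3 di-tags in Sample 3, 16.1% in Sample 4 and 17.4% in Sample 5. Sall4 had 46.6%, 11.9% and 13.6%, and Esrrb had the lowest values, 30.2%, 6.89% and 7.87%. For every gene Sample 3 was above both other libraries, as it was over all di-tags. The part that the cell source or the library preparation had in this was not tested.

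Outside its window, Esrrb had more contacts on 1 side than on the other at intermediate distances. Between 50 and 100 kb from its edge Esrrb had 12, 31 and 29 di-tags on the side of higher coordinates against 7, 5 and 10 on the lower side. Of those on the higher side, 11, 18 and 25 fell in 1 partner region of 10 kb, from 87940000, which is described further with the partner regions. It held 442, 508 and 589 ends, where the median covered region held 44, 48 and 50. These counts by side make no allowance for how well the regions on either side were covered. Without this partner region, an alternative chosen after seeing the data, the higher side had 1, 13 and 4 di-tags against 7, 5 and 10. The direction thus turned in Samples 3 and 5. Between 100 and 200 kb Esrrb had 23, 41 and 32 against 11, 14 and 16. Within 20 kb the order was the opposite, with 5, 7 and 5 on the higher side against 7, 19 and 13. In RefSeq the genes that follow Esrrb in that direction are Vash1, Angel1 and Lrrc74a, and those before it are Gpatch2l, Ift43 and Tgfb3.

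**Figure D3:**
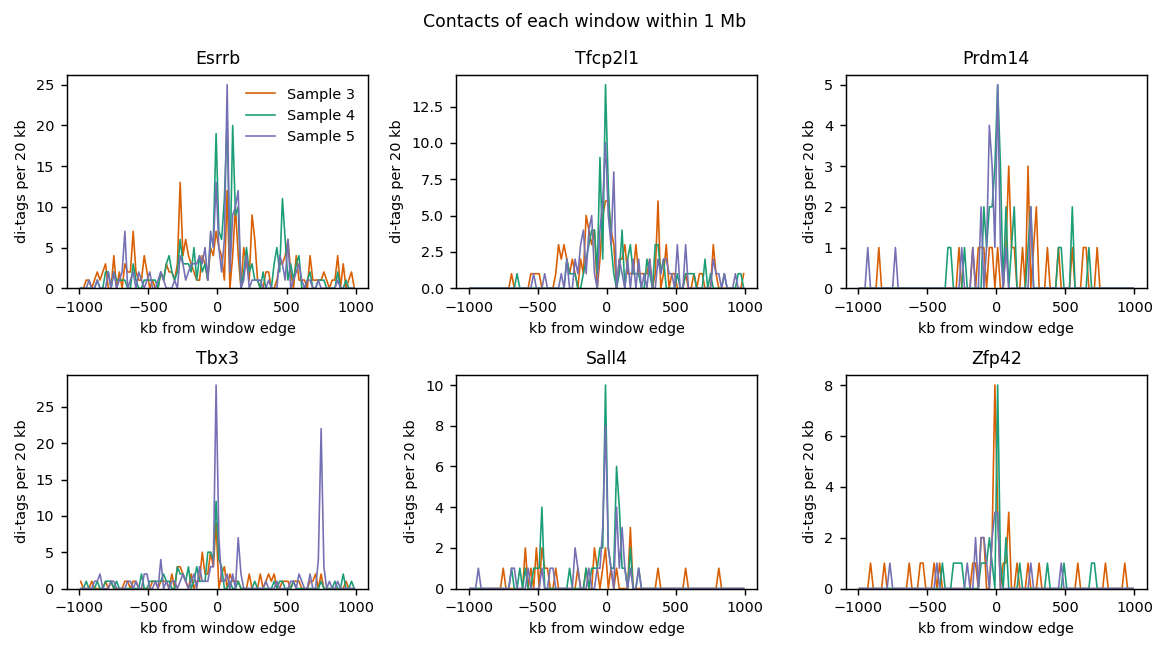
Number of di-tags per 20 kb (vertical axis) against the distance of the other end from the window edge in kb, negative on the lower-coordinate side (horizontal axis), with 1 line per library. On the higher side Esrrb has its highest count at 70 kb in each library, with 12, 21 and 25 di-tags, and Tbx3 has a distant peak in Sample 5.

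Within 1 Mb as a whole, Esrrb had 50.9%, 60.2% and 54.9% of its outside contacts on the higher side, above 50% in 3 of 3 libraries (55.3% ± 4.70, SD, n = 3). The flanking 1 Mb held 58.7%, 61.8% and 62.2% of all ends on that side. Sall4 had 29.6%, 39.6% and 36.8% on the higher side, below 50% in 3 of 3, while 39.3%, 48.2% and 48.3% of flanking ends were there. Between 50 and 200 kb Sall4 went the other way in Samples 4 and 5, with 4, 15 and 10 di-tags on the higher side against 4, 6 and 3 on the lower. Its lower side held more within 20 kb, with 2, 10 and 8 against 0, 2 and 2, and from 200 kb to 1 Mb, with 12, 11 and 10 against 3, 1 and 1. In Tbx3 the contacts ran against the coverage, with 37.9%, 23.8% and 47.7% on the higher side, where 63.4%, 61.4% and 59.3% of flanking ends lay. Tfcp2l1 had 50.9%, 50.5% and 51.6%, where 55.1%, 56.9% and 55.3% of flanking ends lay, and its sides differed by distance. Within 200 kb it had 23, 22 and 23 di-tags on the higher side against 32, 40 and 38 on the lower, and from 200 kb to 1 Mb it had 31, 25 and 26 against 20, 6 and 8. Within 0.5 Mb the mean share of Tfcp2l1 on the higher side was 46.0%. The exact sign-flip permutation p against 50% was 0.25, the smallest that 3 libraries allow, for Esrrb, Sall4, Tbx3 and Tfcp2l1 (0.375 adjusted over the 6 genes). A level of 50% makes no allowance for coverage. The higher-side share of each of these genes, also of Esrrb and Tfcp2l1, was below that of flanking ends in 3 of 3 libraries. Prdm14 had 71.4%, 61.8% and 37.5% and Zfp42 37.8%, 59.3% and 25.0%, with libraries on both sides of 50%.

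Contacts with both ends inside a window were described for Tbx3, Esrrb and Tfcp2l1. Tbx3 had 25, 40 and 66 such di-tags, whose span cannot exceed the 30 kb of the window, with a median of 4.90 kb, 1.60 kb and 7.97 kb. In Esrrb 81, 162 and 149 di-tags had both ends inside, of which 34, 45 and 31 spanned at least 10 kb. Of these, 22, 26 and 16 had an end in the most covered region. Tfcp2l1 had 42, 72 and 60, and its 2 most covered regions, which lie near either end of the window, were joined by 1, 2 and 1 di-tags.

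Within 1 Mb there were 1200 partner regions of 10 kb, 200 for each gene, and 296, 268 and 245 of them shared a di-tag with their window. In all 3 libraries 87 did, 47 of them with Esrrb, 20 with Tfcp2l1 and 11 with Tbx3. Zfp42, Sall4 and Prdm14 shared 4, 3 and 2 such regions. For these counts 1 di-tag per library was enough. They make no allowance for the width of a window or its number of di-tags, both of which were highest for Esrrb. An exact cumulative binomial test was used first that takes the coverage of both regions into account but not their distance, adjusted by Benjamini-Hochberg over all pairs of covered regions of the genome. Its p-values concern the counts of 1 library and not the spread between libraries. Each test concerned 1 region of a window and 1 partner region. The di-tags given for a partner are those of the whole window, beside the smallest adjusted p of its pairs. Over the whole genome it called 45.9%, 64.7% and 63.9% of the region pairs at most 1 Mb apart with at least 2 di-tags. At the members it called 23, 29 and 24 partner regions in Samples 3, 4 and 5, or 60 in any library, 12 in at least 2 and 4 in all 3. No share over the genome is set beside this recurrence between libraries, so it cannot be read as particular to these genes.

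Among pairs of a window region and a partner region with at least 2 di-tags, 23 of 74 were called in Sample 3, 37 of 71 in Sample 4 and 28 of 62 in Sample 5. These are 31.1%, 52.1% and 45.2%, below the 45.9%, 64.7% and 63.9% over the genome, a difference that was not tested. Pairs inside a window, which lie closest together, were left out for the members but not for the genome. Esrrb, with the most ends in all but not per 10 kb, had 7 of 35, 13 of 29 and 7 of 24 pairs called.

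The 4 partner regions called in all 3 libraries lay within 10 kb of a window. Next to Esrrb on the lower side, the region from 87680000 shared 6, 17 and 8 di-tags (exact binomial test, smallest adjusted p of a pair = 2.59e-08, 7.79e-19 and 3.70e-11). Next to Tbx3, also on the lower side, the region from 120100000 shared 6, 6 and 25 di-tags (exact binomial test, smallest adjusted p of a pair = 0.00127, 2.29e-07 and 4.30e-37). Sample 5 thus had more contacts at this place than either other library. Next to Tfcp2l1 the region from 120500000 shared 3, 9 and 7 di-tags, and 10 kb from Zfp42 on the higher side the region from 44410000 shared 3, 5 and 3. With regions of 5 kb, Tfcp2l1 alone had a partner called in all 3 libraries, with 1, and Esrrb, Tbx3 and Zfp42 had 0. No share over the genome is given for that size. Without Sample 3 the number of partner regions called in every library was 8 in place of 4. By the test by distance, described below, the regions next to Esrrb, Tbx3 and Tfcp2l1 were not called in any library. It used only di-tags of viewpoints, and Zfp42 had no viewpoint. Those di-tags numbered 5, 7 and 6 for Esrrb, where 3.21, 5.22 and 4.58 were expected by distance. For Tbx3 they numbered 2, 2 and 12 against 0.865, 2.00 and 4.12. For Tfcp2l1 they numbered 3, 5 and 2 against 1.96, 2.88 and 2.89.

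At 50 kb and more, the partner with the highest smallest count over the libraries was considered for each gene. That of Esrrb was from 87940000 to 87949999, 70 kb from the window on the higher side. It shared 11, 18 and 25 di-tags with the window in Samples 3, 4 and 5. By coverage it was called in Samples 4 and 5 (exact binomial test, adjusted p = 7.86e-06 and 1.78e-08) but not in Sample 3 (adjusted p = 0.426). The di-tags had 11, 16 and 21 distinct positions in the partner region. They came from many parts of the window, with 1, 5 and 0 from its most covered region, where 1.64, 1.15 and 0.866 were expected by distance. That region is the 1 Esrrb viewpoint. For the test by distance described next, only pairs with a viewpoint inside a member window were looked up. Most of these di-tags are therefore not among those results. The partner region held 442, 508 and 589 ends, above the 90th percentile of covered regions (171, 146 and 147). It was thus itself a viewpoint, and its own tests were not looked up.

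The partners so chosen for the other genes shared few di-tags. For Tfcp2l1 the region from 120400000 had 2, 2 and 3, and for Tbx3 the region from 120050000 had 2, 3 and 2. For Sall4 the region from 168770000 had 3, 2 and 1, called in Sample 3 by the exact binomial test (adjusted p = 0.000644). For Zfp42 the region from 44260000 had 2, 1 and 2. For Prdm14 the region from 13040000 had 0, 1 and 3, called in Sample 5 by the exact binomial test (adjusted p = 0.0163, for a pair holding 2 of them). It was tied with the Prdm14 region from 13340000, which had 3, 1 and 0 and was called in Sample 3 by the same exact test (adjusted p = 0.000157), and was taken for its lower coordinate. At such counts no difference between libraries was detectable.

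The second test set each viewpoint's contacts between 20 kb and 1 Mb against the number expected from the mean decline with distance over all viewpoints. As viewpoints, member regions entered with 927, 924 and 920 pairs. None was called in Samples 3 and 4, and 2 were called in Sample 5, both of Tbx3. Over the genome 646 of 4024974, 579 of 3610011 and 515 of 3670255 pairs were called, or 0.016%, 0.016% and 0.014%. Prdm14, Sall4 and Zfp42 had no viewpoint, so none of these pairs was theirs. Pairs in which a member region was only the partner of a viewpoint outside its window were not looked up.

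Both calls joined Tbx3 to the region from 120880000 to 120889999 on chromosome 5, 740 kb from the window edge. From the Tbx3 region at 120110000 it shared 13 di-tags in Sample 5 where 0.172 were expected, a 75.8-fold excess (adjusted p = 1.12e-15, exact binomial test with Benjamini-Hochberg adjustment). From the region at 120120000 it shared 7 where 0.188 were expected, 37.3-fold (exact binomial test, adjusted p = 5.30e-05). At 700 kb and more, 42, 33 and 42 pairs were called over all viewpoints of the 3 libraries. Of the calls at any distance, 43 of 646, 96 of 579 and 85 of 515 were also made in another library.

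The contact was described further after its values had been seen. Over 60 kb around the partner region, from 120860000 to 120919999, Tbx3 shared 2 di-tags in Sample 3, 1 in Sample 4 and 29 in Sample 5. The 29 di-tags had 23 distinct positions in the window and 27 in the block, in lists where each di-tag has its own pair of positions. From the 3 regions of the window came 20, 8 and 1 of them. The 60 kb flanking the Tbx3 window on the lower side shared 6 di-tags with the block in Sample 5 and those on the higher side 3. From the window to the 60 kb below and above the block there were 2 and 1. Each of these 4 flanking counts was below the 29 of the window and block, without allowance for their own coverage.

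**Figure D4:**
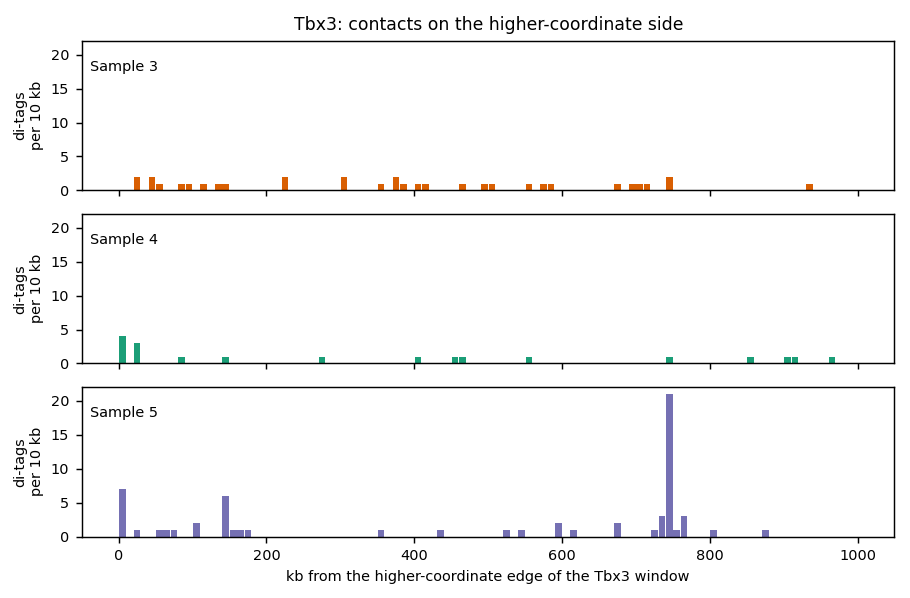
Number of di-tags per 10 kb (vertical axis, the same in each panel) shared by the Tbx3 window with regions at a given distance from its higher-coordinate edge in kb (horizontal axis), with 1 panel per library. A single bar of 21 di-tags near 740 kb is seen in Sample 5, where Samples 3 and 4 have 2 and 1.

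The block held 1204, 880 and 780 ends in Samples 3, 4 and 5, without allowance for depth. The Tbx3 window held 614, 493 and 634 ends. Relative to all ends of a library, its coverage was 0.876 times that of Sample 3 in Sample 4 and 1.098 times in Sample 5. Whether coverage had a part in the contact was not tested. The 29 di-tags of Sample 5 made up 22.3% of the outside contacts of Tbx3 within 1 Mb in that library. Without them the share on the higher side was 36.5%, 22.8% and 32.7%, and the trans share was 37.8%, 57.5% and 50.6%, still below that of each library. In the RefSeq order of genes Tbx3 is followed in this direction by Tbx5, Rbm19, Lhx5 and Sdsl. Which of them, if any, lies in the block was not determined, because coordinates were not carried from one build to the other. With 1 of 3 libraries showing the contact, it has no replicate.

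Trans partners were almost all hit once. Esrrb reached 982, 1092 and 1070 regions with 996, 1103 and 1074 trans di-tags, and no region was hit by more than 3. Among pairs of a member region and a trans region with at least 2 di-tags, 3 of 20, 5 of 13 and 1 of 6 were called by coverage, against 24.9%, 33.4% and 30.2% of all such pairs in the genome. These numbers of pairs are too small for a comparison with that background.

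Contacts between the 6 genes themselves were at the limit of detection. Over the 14 pairs of genes on different chromosomes there were 2 trans di-tags in the 3 libraries together (exact Poisson 95% interval 0.242 to 7.22), against 0.441 expected from their trans coverage. One joined Esrrb to Tfcp2l1 in Sample 3, and the other joined Esrrb to Tbx3 in Sample 4. Prdm14 and Tfcp2l1, which share chromosome 1, were joined by 0 di-tags.

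Retaining duplicates changed the picture at these genes, as it did over the genome. In the lists with duplicates retained, the mean number of copies of a Tbx3 di-tag was 16.8, 14.9 and 13.7 in Samples 3, 4 and 5, against 7.24, 5.72 and 5.20 over all di-tags. Zfp42 had 16.7, 10.3 and 8.36 copies. Esrrb and Tfcp2l1 were nearer to the libraries with 9.06, 7.59 and 6.79 copies and 9.21, 6.59 and 6.11. Sall4 was below them in each library with 5.04, 4.10 and 3.43, as was Prdm14 with 6.07, 5.27 and 3.57.

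**Figure D5:**
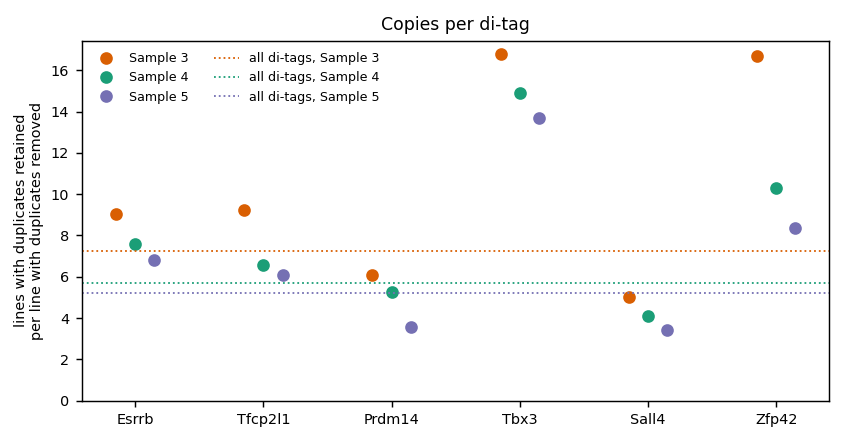
Lines with duplicates retained per line with duplicates removed (vertical axis) for the di-tags of each gene (horizontal axis), with 1 point per library and a dotted line for all di-tags of that library. Tbx3, at 13.7 to 16.8, and Zfp42, at 8.36 to 16.7, lie above the lines, and Sall4, at 3.43 to 5.04, below them.

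The coverage test called 2420, 1650 and 1610 pairs with a member region when duplicates were retained and 40, 61 and 50 when they were removed, a ratio of 60.5, 27.0 and 32.2. Over the genome it called 4581620, 3616055 and 3657648 pairs with duplicates retained, against 121231, 148304 and 123110 with duplicates removed. The members' rise was thus part of a rise over the whole genome, and the 2 were not compared by a test. Of all pairs with at least 2 di-tags, 91.6%, 92.7% and 92.6% were called with duplicates retained, and 39%, 61.4% and 59.9% with duplicates removed. Of the members' pairs with duplicates retained 92.1%, 92.0% and 92.8% were called, close to those values. The members' pairs called with duplicates removed were all called with duplicates retained too. Of the calls with duplicates retained, 94.6%, 93.5% and 94.0% rested on 1 distinct di-tag. Cis pairs were 49.9%, 28.3% and 29.8% of them, against 92.5%, 91.8% and 98.0% with duplicates removed. Neither share is set beside its value over the genome. The test by distance called 231 partner regions of the members in at least 1 library with duplicates retained, against 1 with duplicates removed, while it called 8.87%, 6.7% and 5.73% of all pairs in the genome.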

How the data were processed

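For each of Samples 3, 4 and 5 the authors deposited 2 lists of di-tags, with duplicates retained and removed, and the deposited columns used hold positions, from which lines were counted. With HiCUP the authors cut reads at ligation junctions, aligned each read on its own, kept uniquely placed pairs and removed artefacts. The submitters' processing notes name Bowtie 1.1.0 and mm9. The bait design was not used here.

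Positions were placed in 10 kb regions with Python 3.11.15, NumPy 2.4.6, SciPy 1.17.1 and pandas 2.3.3. Calls needed 2 di-tags and an adjusted p under 0.05. Both tests were run over the whole genome and tried on data simulated from Sample 3. The simulation followed the tests' own assumptions, and its added pairs held more di-tags than a call needs. It therefore does not show how the tests behave on the measured data. Depth was 9376907, 8596799 and 8821161 di-tags.

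The labels give 1 group of 3 libraries, so no groups were compared. The windows, members and tests were chosen with earlier results of these data known. Named positions follow a rule: the leading 1 kb bin, and the partner 50 kb to 1 Mb away with the highest smallest count. Partners called in all libraries, second bins and the distant Tbx3 contact were added after the values were seen. Alternatives varied duplicates, region size, windows, limits, thresholds, depth and libraries.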

Additional observations from a re-analysis of the deposited data

How the results depend on the processing

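Over the 6 windows together, the trans share (60.2%) and the cis share within 1 Mb (55.4%) moved by less than 1 SD (9.84 and 21.8 points) under every alternative tried. Leaving out 1 of 3 libraries cannot move a mean by 1 SD, so for those alternatives this was fixed in advance. Without Sample 3, which widens the SD, the shares were 65.9% and 67.9%. Because the SD is so wide, shifts of several points also stay below it. Without di-tags inside a window, for example, the shares were 64.8% and 46.7%. When each library was left out in turn, the partner regions called by coverage in all remaining libraries numbered 6 to 8 against 4, those called by distance in any remaining library 0 to 1 against 1, and the di-tags between member windows 1 to 2 against 2. Without Sample 3 the coverage count was 8, and without Sample 5 the distance count was 0, since the Tbx3 contact came from that library. The coverage count was 9 with regions of 20 kb, 1 with regions of 5 kb and 51 with duplicates retained. With duplicates retained 91.6%, 92.7% and 92.6% of all pairs in the genome with at least 2 di-tags were called by coverage. With duplicates removed these shares were 39%, 61.4% and 59.9%. For regions of 20 kb and 5 kb no share over the genome is given, so those counts are not results about these genes. With duplicates retained the distance count was 231, from 7 member viewpoints in place of 5, where 8.87%, 6.7% and 5.73% of all pairs in the genome were called, and the di-tags between windows numbered 17. The share on the higher side was 49.3%, and it was 47.5% within 0.5 Mb and 52.3% without partners within 20 kb. Fewer libraries have to share a call when 1 is left out, and the cause of the other shifts was not tested. For Tfcp2l1 the share on the higher side was 46.0% within 0.5 Mb, below 50%, against 51.0% within 1 Mb.

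Leaving out the distant Tbx3 block, an alternative chosen after seeing the data, gave a mean trans share of 48.7% against 47.7%. No paired analysis was possible because the labels give 1 group. Depth limits Prdm14, Sall4 and Zfp42 most, with 123 to 257 di-tags per library, and they have no viewpoint among the 10% most covered regions. At 20%, Prdm14 and Zfp42 had 1 in every library and Sall4 had 1 in Sample 5.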

Other observations

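The share of trans partner ends that fell in the most covered regions differed between genes. Over all trans ends it was 36.3%, 30.4% and 29.8% in Samples 3, 4 and 5. Tfcp2l1 was below that in each library with 22.8%, 22.1% and 21.7%, and so was Tbx3 with 26.1%, 21.5% and 18.7%. Esrrb was nearer to it with 33.9%, 29.5% and 27.6%, and Sall4 lay at 33.3%, 36.2% and 31.1%. Prdm14 was below it in each library with 25.3%, 25.7% and 14.7%, and Zfp42 was below it in Samples 3 and 5 but not in Sample 4, with 20.8%, 31.7% and 21.6%. These shares were not tested. No di-tag of the 6 windows with the same positions and strands at both ends was found in 2 libraries (0 for each pair of libraries).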
